A study of Mus musculus with 6 samples.

Results

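RNase P RNA, its Rprl copies, RNase MRP RNA, 7SK RNA and 7SL RNA are small, folded noncoding RNAs that work inside protein particles, and Rprl3, one of the RNase P RNA copies, was near 0 in Dock3 KO muscle. The set was chosen by 8 gene symbols (Rprl3, Rprl1, Rprl2, Rpph1, Rmrp, Rn7sk, Rn7s1 and Rn7s2), with the difference of Rprl3 between genotypes already known. The GENCODE M21 annotation gives these symbols 10 gene identifiers, of which 9, covering 7 symbols, were among the 54393 genes of the deposited table. Rn7s2 was not analysed here. Because the genotype contrast led to the choice, the genotype differences of these RNAs are given below as descriptions, without a test.

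The samples were tibialis anterior muscles, a fast muscle of the lower leg, from adult mice. There were 3 wild-type samples (WT, numbered 1, 3 and 4, with titles that begin with C57) and 3 samples of mice with Dock3 knocked out (Dock3 KO, numbered 1, 2 and 3). The titles of the Dock3 KO samples name no strain, and any strain difference between the groups could not be told apart from the knockout. Dock3 encodes a guanine nucleotide exchange factor that activates the GTPase Rac. How the Dock3 allele was made, the sex of the mice and whether the muscles of a genotype came from separate animals are not given in the sources used here, so the p-values below measure the spread between these samples. Total RNA was depleted of ribosomal RNA and made into stranded, paired-end libraries.

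The values are normalized counts, which put the 6 libraries on a common scale. The library sums lay between 23520223 and 33393950 normalized counts. The estimated depth lay between approximately 21700000 and 32500000 reads, in an order that differs from that of the sums because 1 read is worth 0.775 to 1.52 normalized counts, depending on the sample. Dock3 itself gave 169, 161 and 118 normalized counts in the WT samples, against 22.4, 1.78 and 1.54 in the Dock3 KO samples (log2 difference -4.76, limma with Benjamini-Hochberg adjusted p = 0.0140). All 8 muscle fibre markers (Acta1, Ckm, Myh4, Myh1, Tnnt3, Tnni2, Mb and Ttn) were detected in every sample, with summed levels of 1635290 to 2006360 in WT and 1737920 to 2078520 in Dock3 KO. Libraries of Dock3 KO replicates 1 and 2 stood apart. Gm42418, which RefSeq lists as the ribosomal RNA gene Rn18s-rs5, and Lars2 together took 17.9% and 20.3% of their sums, against 3.64% in Dock3 KO replicate 3 and 3.00% to 3.51% in WT. Of 4 fibroblast markers (Pdgfra, Col1a1, Col3a1 and Dcn) 2 rose in Dock3 KO (limma, Benjamini-Hochberg), beside 71 of all 16031 genes tested. In either direction 1.03% of all genes tested were called. None of the 4 fibroblast markers was at 0, and their summed level was 26593 to 27651 in WT and 29842 to 35372 in Dock3 KO. Of 6 macrophage markers (Adgre1, Cd68, C1qa, C1qb, Csf1r and Lyz2) none was at 0, and the summed level was lower in each Dock3 KO sample, at 3311 to 4180 against 4379 to 4825 in WT. The part of both marker lists in the results was not tested. In whole muscle, fewer cells of a type and less RNA per cell cannot be told apart.

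RNase P is the ribozyme that removes the leader from the start of precursor transfer RNAs, and Rpph1 encodes its catalytic RNA. RNase MRP is a related particle that shares most of its proteins with RNase P and cuts precursor ribosomal RNA, and Rmrp encodes its RNA. 7SK RNA, from Rn7sk, holds the elongation kinase P-TEFb inactive together with HEXIM proteins, and 7SL RNA, from Rn7s1 and Rn7s2, is the scaffold of the signal recognition particle, which guides ribosomes to the endoplasmic reticulum. All of these RNAs are made by RNA polymerase III.

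The sequences of the RNase P RNA genes are shown because the account of Rprl3 turns on how far its copies can be told apart. They are GENCODE M21 transcripts on GRCm38, written 5′ to 3′. In Rpph1 the first 300 bases are shown and capitals mark a tandem repeat of a 21-base unit at bases 182 to 223. In Rprl3, Rprl2 and Rprl1 (its lincRNA entry) capitals mark bases that mismatch Rpph1 in a local alignment. The alignment covers bases 1 to 236 of Rprl3 and Rprl2 and bases 5 to 238 of Rprl1. Bases outside it are also in lower case, which does not mean that they match Rpph1.
Rpph1: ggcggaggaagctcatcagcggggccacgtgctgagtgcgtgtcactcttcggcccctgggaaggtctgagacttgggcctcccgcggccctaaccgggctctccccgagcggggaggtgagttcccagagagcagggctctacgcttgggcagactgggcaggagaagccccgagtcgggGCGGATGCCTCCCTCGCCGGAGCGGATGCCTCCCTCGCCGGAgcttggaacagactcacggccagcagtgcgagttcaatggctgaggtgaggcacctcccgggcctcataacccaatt
Rprl3: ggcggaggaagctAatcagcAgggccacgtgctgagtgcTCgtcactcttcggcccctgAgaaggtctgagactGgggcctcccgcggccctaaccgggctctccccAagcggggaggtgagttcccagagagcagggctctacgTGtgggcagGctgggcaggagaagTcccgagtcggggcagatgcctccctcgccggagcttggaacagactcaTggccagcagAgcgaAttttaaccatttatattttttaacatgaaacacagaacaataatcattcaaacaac
Rprl2: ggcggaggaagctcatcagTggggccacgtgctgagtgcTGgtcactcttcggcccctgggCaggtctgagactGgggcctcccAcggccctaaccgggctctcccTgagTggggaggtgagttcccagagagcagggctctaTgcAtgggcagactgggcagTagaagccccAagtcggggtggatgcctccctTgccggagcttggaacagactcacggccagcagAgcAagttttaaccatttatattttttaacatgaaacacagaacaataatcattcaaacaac
Rprl1: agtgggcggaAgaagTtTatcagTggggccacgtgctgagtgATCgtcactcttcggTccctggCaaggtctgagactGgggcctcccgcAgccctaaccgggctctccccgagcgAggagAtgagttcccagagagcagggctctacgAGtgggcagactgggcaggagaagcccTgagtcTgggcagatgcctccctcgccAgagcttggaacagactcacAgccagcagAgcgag
Rprl3 matched Rpph1 at 222 of 236 aligned positions (94.07%), with 14 mismatches and 21 gap bases in total, as many as 1 repeat unit has. The aligner split these gap bases. A base of each Rprl copy that differs from both Rpph1 repeat units is therefore in lower case and not among the mismatches. Rprl2 matched Rpph1 at 93.64% of aligned positions, with 15 mismatches, and the Rprl1 lincRNA entry at 91.45%, with 20 mismatches. Rprl3 matched Rprl2 at 267 of 290 positions (92.07%), and the longest identical run was 56 bases for that pair and 37 bases for Rprl3 and Rpph1. The run of 56 bases is the 3′ end of the Rprl3 and Rprl2 entries. Nearly all of it lies beyond the part aligned with Rpph1, so the percentage for that pair covers more bases than those for Rpph1. In the best local alignment of RNase MRP RNA with Rpph1, the longest identical run was 9 bases.

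The genes lie far apart on GRCm38. Rprl3 (ENSMUSG00000088025, annotated as a ribozyme) is at chr8:3803069-3803358 on the minus strand, overlaps no annotated gene and is 21939 bases from the nearest one, the microRNA gene Gm24934. Rprl2 (ENSMUSG00000087775) is at chr3:22251374-22251663 on the plus strand and also overlaps no gene. Rprl1 has a ribozyme entry (ENSMUSG00000088675, chr6:69326844-69327170) and a lincRNA entry (ENSMUSG00000106222, chr6:69326937-69327174) on the same strand. Rpph1 (ENSMUSG00000092837) is at chr14:50807449-50807767 on the minus strand, within the span of the protein-coding gene Ccnb1ip1 on that strand and 74 bases from Parp2 on the other. RefSeq lists all of the RNase P entries with the type RNase P RNA, and gives Rprl3 a shorter span of 235 bases against 290 in GENCODE.

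The degree to which a read can be assigned to 1 of these genes was described by counting 31-base words of each transcript that occur in no other annotated gene. Rprl3 had 221 such words of 260 (85.0%). It shared 28 words with Rprl2, most of them in the identical 3′ end, 13 with Rpph1 and Ccnb1ip1, and 1 with Gm25043. Rprl2 had 229 of 260 (88.08%). Rpph1 had 86 of 289 (29.76%), and 203 of its words were also in Ccnb1ip1, the gene that overlaps it. How reads matching several genes were divided is not given in the sources used here.

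**Figure D1:**
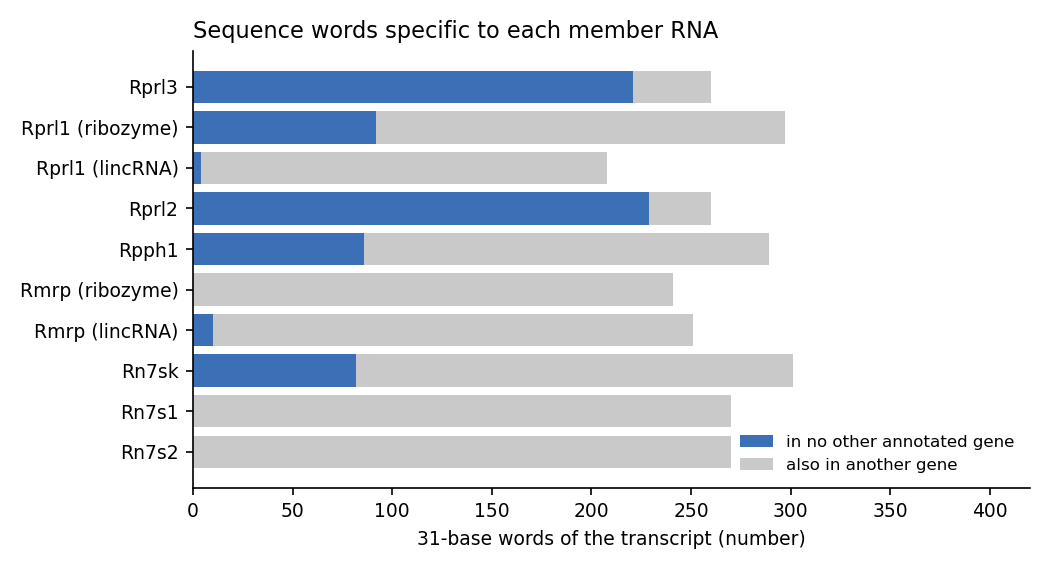
Number of 31-base sequence words of each transcript (horizontal axis) that occur in no other annotated gene (blue) or also in another gene (grey). Rprl3 and Rprl2 are the entries with the largest blue share, at 85.0% and 88.08%, while the Rmrp ribozyme entry, Rn7s1 and Rn7s2 have no word of their own.

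Rprl3 gave 528, 900 and 758 normalized counts in the WT samples (replicates 1, 3, 4), against 1.38, 3.32 and 2.25 in the Dock3 KO samples (replicates 1, 2, 3). The groups did not overlap: the lowest WT library held 528 normalized counts and every Dock3 KO library fewer than 5. The means were 729 ± 188 (SD, n = 3) and 2.32 ± 0.969 (SD, n = 3), a ratio of 315, and the log2 difference was -7.79 on the log2(normalized count + 1) scale (standard error 0.34). The Dock3 KO values correspond to approximately 0.987, 2.18 and 2.90 reads, so the size of the ratio rests on very few reads and no counting interval can be given for it. Dock3 KO replicate 3, whose share of Gm42418 and Lars2 was near that of WT, had a value between those of the other Dock3 KO samples. With Dock3 KO replicates 1 and 2 left out, the log2 difference was -7.78.

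The other Rprl copies were at or near 0 in both genotypes. Rprl2 was at 2.73, 3.26 and 1.66 in the WT samples, against 0, 0 and 0.763 in the Dock3 KO samples, which is 2.55 ± 0.815 against 0.254 ± 0.440 (SD, n = 3 each). The Rprl1 lincRNA entry was at 2.75, 2.40 and 0 in WT and listed at 0 in the Dock3 KO samples, and the Rprl1 ribozyme entry was listed at 0 in all samples but Dock3 KO replicate 1, at 1.40. These 3 entries were below the mean of 10 normalized counts needed for the fit across genes. Rprl3 was thus the only Rprl copy with more than 5 normalized counts in any of the 6 samples.

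Rpph1, the gene of the catalytic RNA itself, gave 19055, 28020 and 24861 normalized counts in the WT samples, against 81141, 63217 and 94884 in the Dock3 KO samples. The lowest Dock3 KO sample was above the highest WT sample. The means were 23979 ± 4547 and 79747 ± 15879 (SD, n = 3 each), a ratio of 3.33, and the log2 difference was 1.73 (standard error 0.20). The highest value was that of Dock3 KO replicate 3, whose share of Gm42418 and Lars2 was near that of WT.

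The differences of Rprl3 and Rpph1 had opposite signs and very unequal sizes in normalized counts. Rprl3 made up 2.70%, 3.11% and 2.96% of the sum of Rprl3 and Rpph1 in WT and 0.00171%, 0.00525% and 0.00237% in Dock3 KO. The mean was 726 normalized counts lower for Rprl3 and 55769 higher for Rpph1 in Dock3 KO, so the former is 1.30% of the latter. The sum of both ran from 19583 to 28920 in WT and from 63221 to 94886 in Dock3 KO, and it differed between genotypes as Rpph1 did. Ccnb1ip1, which shares most of the Rpph1 words, was at 1.51, 2.85 and 7.86 in WT and listed at 0 in Dock3 KO. Parp2, on the opposite strand next to Rpph1, was at 128 ± 48.3 in WT against 118 ± 9.65 in Dock3 KO (SD, n = 3 each; limma with Benjamini-Hochberg adjusted p = 0.984).

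**Figure D2:**
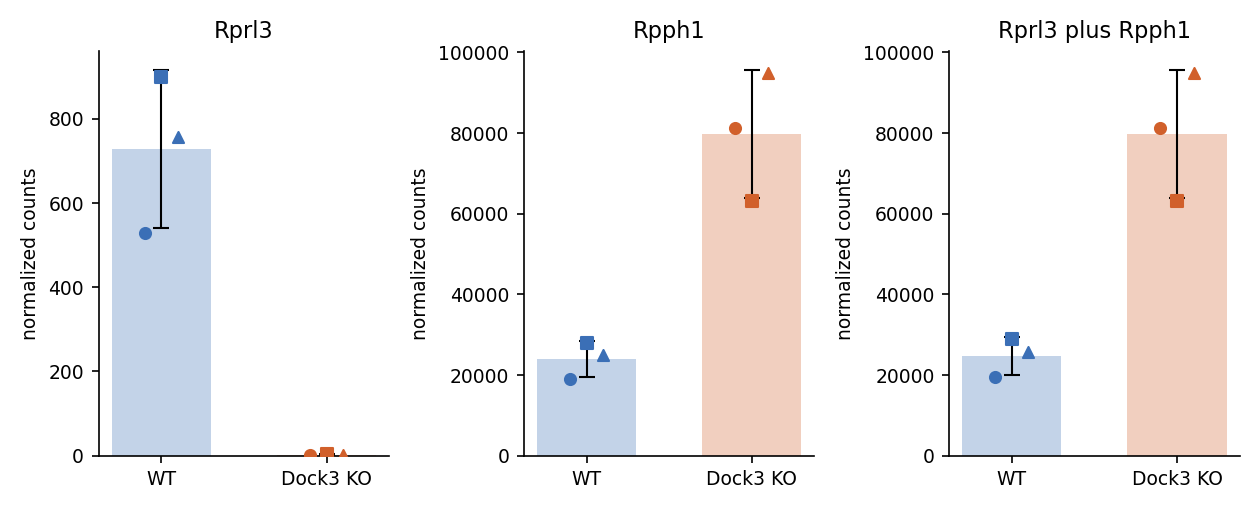
Normalized counts (vertical axes, linear from 0) of Rprl3, Rpph1 and their sum in WT and Dock3 KO, with bars for the mean, whiskers for the SD and 1 point per sample (n = 3 each). Rprl3 lies at 729 ± 188 in WT against 2.32 ± 0.969 in Dock3 KO, Rpph1 at 23979 ± 4547 and 79747 ± 15879, and the sum follows Rpph1.

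RNase MRP RNA differed less. Its sequence is shown because its 2 annotated entries are nearly the same RNA: the ribozyme entry (ENSMUSG00000088088, chr4:43492788-43493058, minus strand) lies inside the lincRNA entry (ENSMUSG00000115420, chr4:43492783-43493063), and capitals mark the 10 bases that only the longer entry has.
Rmrp: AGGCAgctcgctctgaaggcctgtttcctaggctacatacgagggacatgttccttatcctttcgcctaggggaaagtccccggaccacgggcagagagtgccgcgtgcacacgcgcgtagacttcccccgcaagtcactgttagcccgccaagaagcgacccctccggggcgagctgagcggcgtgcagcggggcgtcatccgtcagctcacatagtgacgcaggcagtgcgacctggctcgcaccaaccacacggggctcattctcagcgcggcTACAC
None of the 241 words of the ribozyme entry is in that entry alone, and 10 of 251 words of the lincRNA entry are its own. The ribozyme entry gave 31007, 56922 and 55672 normalized counts in the WT samples, against 61741, 50278 and 67712 in the Dock3 KO samples. The groups overlapped, with means of 47867 ± 14615 and 59911 ± 8860 (SD, n = 3 each) and a log2 difference of 0.37 (standard error 0.25). This difference was 0.08 (standard error 0.20) without WT replicate 1, and at most 0.52 with another sample left out. It was 0.09 when libraries were rescaled to the same total. The lincRNA entry was at 18.1, 29.1 and 26.2 in the WT samples, against 88.3, 11.7 and 63.9 in the Dock3 KO samples, so that Dock3 KO contained both the lowest and the highest value. The log2 difference was 0.75 (standard error 0.65). Ccdc107, which overlaps both entries on the other strand, was at 28.8 ± 8.86 in WT against 49.3 ± 7.74 in Dock3 KO (SD, n = 3 each; limma with Benjamini-Hochberg adjusted p = 0.458). Whether strand was used in counting is not given in the sources used here.

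Rpph1 was below RNase MRP RNA in each WT sample and above it in each Dock3 KO sample. The ratio of Rpph1 to the Rmrp ribozyme entry was 0.615, 0.492 and 0.447 in WT and 1.31, 1.26 and 1.40 in Dock3 KO, with no overlap. Per kilobase of transcript, Rpph1 was at 75168 ± 14254 normalized counts in WT against 176632 ± 53929 for Rmrp, and at 249991 ± 49778 in Dock3 KO against 221072 ± 32694 for Rmrp (SD, n = 3 each). Within each sample the per-kilobase ratio of Rpph1 to Rmrp was 0.522, 0.418 and 0.379 in WT and 1.12, 1.07 and 1.19 in Dock3 KO.

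7SK RNA was higher in each Dock3 KO sample by a narrow margin in normalized counts, which was not seen in its share of the library sums. Rn7sk (ENSMUSG00000065037) is at chr9:78175303-78175633 on the minus strand, 281 bases from the lincRNA gene C920006O11Rik. Its first 300 bases are shown with every GATC in capitals, since in 7SK RNA the same letters, as GAUC, form part of the site where HEXIM binds. The capitals mark the letters only, and which of them belong to that site was not tested.
Rn7sk: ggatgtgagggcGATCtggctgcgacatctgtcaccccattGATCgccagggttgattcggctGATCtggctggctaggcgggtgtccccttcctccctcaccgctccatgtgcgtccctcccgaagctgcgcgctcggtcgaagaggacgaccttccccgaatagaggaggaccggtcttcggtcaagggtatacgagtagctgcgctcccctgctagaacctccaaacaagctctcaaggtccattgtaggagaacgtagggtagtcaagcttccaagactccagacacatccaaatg
The letters GATC, which read the same on both strands, occur 3 times in these bases. Of 131058 annotated transcripts of at least 300 bases, 58.27% hold them in their first 300 bases, so the match is a description. Rn7sk gave 565717, 576859 and 701793 normalized counts in the WT samples, against 775252, 704073 and 805171 in the Dock3 KO samples. Every Dock3 KO value was higher than every WT value, but the lowest Dock3 KO value was only just above the highest WT value. The means were 614790 ± 75553 and 761499 ± 51934 (SD, n = 3 each) and the log2 difference was 0.31 (standard error 0.27). As a share of the library sum it overlapped, with 2.26%, 2.45% and 2.65% in WT and 2.32%, 2.13% and 3.20% in Dock3 KO. The sums of Dock3 KO replicates 1 and 2 hold 17.9% and 20.3% of Gm42418 and Lars2, which lowers the share of every other gene there. With both genes left out of the total the log2 difference was 0.21 (standard error 0.23). With libraries rescaled to the same median it was 0.35 (standard error 0.28). Rn7sk shares words with 25 other annotated genes, whose summed level was 542 to 754 normalized counts in any sample.

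7SL RNA was the most abundant of the set. Rn7s1 (ENSMUSG00000099021) is at chr12:69159295-69159594 on the plus strand, 109 bases from Rps29, and Rn7s2 (ENSMUSG00000099250), at chr12:69361182-69361481 on the minus strand, has the identical 300-base transcript. None of the 270 words of Rn7s1 is unique to it, so the Rn7s1 values may hold reads of both copies. Rn7s1 gave 1795680, 2380390 and 2075370 normalized counts in the WT samples, against 2464160, 2211640 and 2000560 in the Dock3 KO samples. The groups overlapped, and the means, 2083810 ± 292446 and 2225450 ± 232109 (SD, n = 3 each), differed by less than their spread, with a log2 difference of 0.10 and a standard error of 0.37. Its direction depended on the scaling, with -0.18 when libraries were rescaled to the same total, where Rn7sk was at 0.04. With Gm42418 and Lars2 left out of that total Rn7s1 was at -0.004, and with the same median at 0.13. Quantile normalization gave -0.67 for Rn7s1 and 0.00 for Rn7sk, but it sets such top values by rank alone. Rn7s1 ranked 2, 1 and 2 in WT and 3, 3 and 2 in Dock3 KO. Rn7sk held equal ranks, 7, 4 and 6 against 6, 7 and 4, so no level is read from that setting. Rn7s6, a related 7SL gene that shares 143 words with Rn7s1, was at 1120 ± 167 in WT against 1263 ± 163 in Dock3 KO (SD, n = 3 each; limma with Benjamini-Hochberg adjusted p = 0.770).

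**Figure D3:**
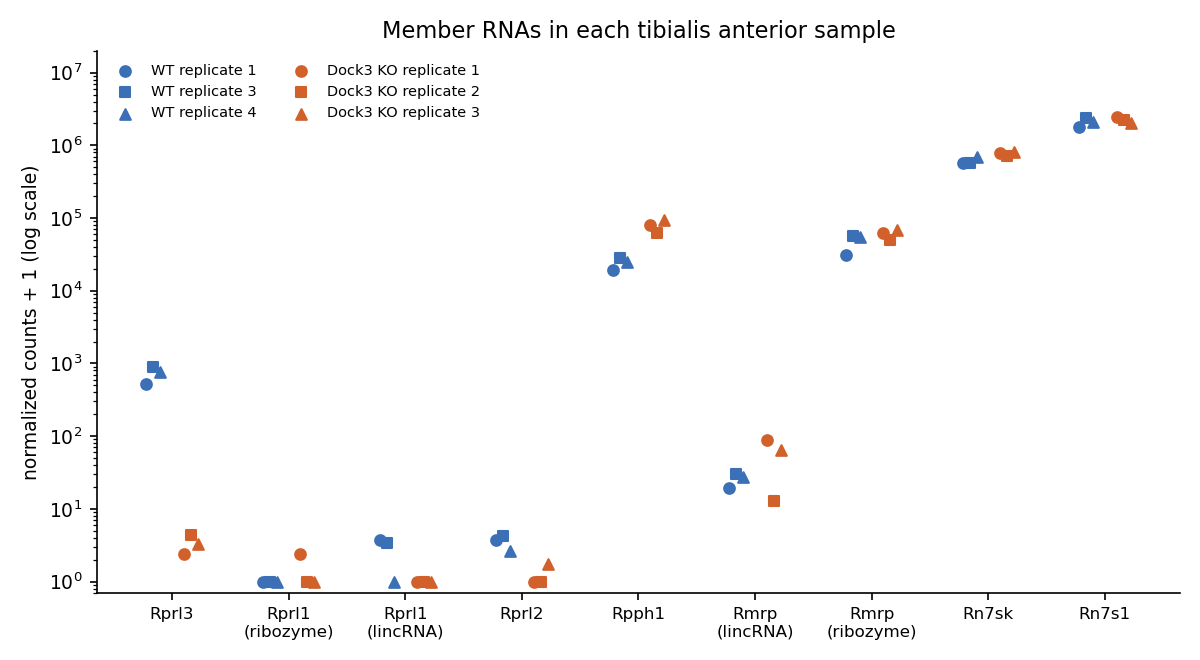
Value in each sample (vertical axis, normalized count + 1 on a log scale) of the 9 gene entries, with WT in blue, Dock3 KO in orange and a marker shape per replicate. Rprl3 lies between 528 and 900 in WT and between 1.38 and 3.32 in Dock3 KO, Rpph1 lies higher in each Dock3 KO sample, and points at the bottom edge are values of 0.

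The order of the levels per kilobase of transcript was Rn7s1, Rn7sk, Rmrp ribozyme entry, Rpph1 and Rprl3 in WT. The mean levels of the first pair were 6946030 and 1857370 normalized counts per kilobase, while Rprl3 was at 2513 ± 647 in WT and at 7.99 ± 3.34 in Dock3 KO (SD, n = 3 each). Below them in WT stood the Rmrp lincRNA entry at 87.1, Rprl2 at 8.78 ± 2.81 and the Rprl1 lincRNA entry at 7.21 ± 6.29, the last pair lying within their spread of each other. The 9 entries together made up 9.17% to 12.9% of the library sums, nearly all of it Rn7s1 (6.70% to 10.1%) and Rn7sk (2.13% to 3.20%). Rn7s1 ranked 1 to 3 and Rn7sk 4 to 7 among all genes in each sample.

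Of the 9 entries, 6 passed the filter on low values. In the fit across 16031 genes, 165 (1.03%) had an adjusted p under 0.05 in either direction (limma, Benjamini-Hochberg), and 2 of the 6 entries were among them, Rpph1 on the higher and Rprl3 on the lower side. The median log2 difference of the 6 was 0.34, beside -0.01 over all genes tested. Every Dock3 KO value was above every WT value in 2 of the 6 (Rpph1 and Rn7sk) and in 7.6% of all genes tested. Every Dock3 KO value was below every WT value in 1 of the 6 (Rprl3) and in 8.65% of all genes tested. As these RNAs were chosen with this contrast known, nothing is read from their counts.

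Correlations within the set were taken over the 6 samples on the log2(normalized count + 1) scale, with the genotype and the library shared by all genes of a sample. Pearson's r was -0.96 between Rprl3 and Rpph1, 0.86 between Rpph1 and Rn7sk, 0.69 between Rpph1 and the Rmrp ribozyme entry, and 0.26 between Rn7sk and Rn7s1. The genes with the pattern most like that of Rprl3 were Gm9825 (r = 0.998), Gm8210, Rpl3-ps1, Olfr369-ps1 and Gm12191 (0.996 to 0.997). All 5 are annotated as pseudogenes and were listed at 0 in the Dock3 KO samples, with WT means from 31.7 (Olfr369-ps1) to 1658 (Gm8210) normalized counts. The closest gene to Rpph1 was Cisd2 (r = 0.998), which was at 656 ± 41.3 in WT against 897 ± 51.3 in Dock3 KO (SD, n = 3 each). The closest genes to the Rmrp ribozyme entry, the Rmrp lincRNA entry, Rn7sk and Rn7s1 were Gab2 (0.990), 0610009L18Rik (0.985), Pdcd2 (0.991) and Sh3rf2 (0.997).

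The proteins that work with these RNAs were not used to choose them, and their genes were compared between genotypes in the same fit. The lists of these proteins were, however, made with earlier results of these data known. The 6 lists hold 70 genes, of which 69 were tested; Rpp25 was below the filter. No gene of the lists passed the adjusted threshold (limma, Benjamini-Hochberg), beside 1.03% of all genes tested, so a count of 0 among 69 is near the background. In the lists 3 had an unadjusted p under 0.05 in limma, the only tool run, beside 1685 of all 16031 genes. Of the 69, 28 had a log2 difference above 0 and 41 below 0. The smallest adjusted p was 0.232, and the median log2 difference was -0.03, beside -0.01 over all genes. Every Dock3 KO value was above every WT value in 4 of the 69 and below in 7, beside the 7.6% and 8.65% of all genes tested.

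Of the RNase P and MRP proteins, 10 were tested and 0 called, with a median log2 difference of 0.03. Rpp14 had the highest mean of this list, at 488 ± 58.7 normalized counts in WT against 545 ± 124 in Dock3 KO (SD, n = 3 each). Rpp21, a subunit of RNase P, was at 208, 276 and 237 in the WT samples, against 199, 198 and 198 in the Dock3 KO samples, a log2 difference of -0.26 (limma with Benjamini-Hochberg adjusted p = 0.677). Pop7, a subunit that both particles share, had a log2 difference of -0.32 (limma with Benjamini-Hochberg adjusted p = 0.742). Of the other enzymes that process transfer RNA ends, 6 were tested and 0 called. The enzyme Trnt1, which adds CCA, and Elac2, which cuts the trailing end, had log2 differences of -0.23 and -0.20 (limma with Benjamini-Hochberg adjusted p = 0.673 and 0.759). Hsd17b10 had the highest mean of this list, at 612 ± 82.3 in WT against 593 ± 132 in Dock3 KO (SD, n = 3 each).

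Of the 7SK particle and P-TEFb genes, 10 were tested and 0 called, with a median log2 difference of -0.09. Srsf2, a splicing factor, had the highest mean, at 1395 ± 33.9 normalized counts in WT against 1377 ± 77.0 in Dock3 KO (SD, n = 3 each). Ccnt1, the cyclin of P-TEFb, had a log2 difference of -0.32 and Hexim2, an inhibitor of P-TEFb, of -0.64 (limma with Benjamini-Hochberg adjusted p = 0.500 and 0.579). Of the signal recognition particle and receptor genes, 10 were tested and 0 called, with a median of -0.01. Srpr, the receptor subunit that docks the particle, had the highest mean and was at 3573, 3666 and 3940 in the WT samples, against 3005, 3539 and 2750.0 in the Dock3 KO samples, a log2 difference of -0.27 (limma with Benjamini-Hochberg adjusted p = 0.510). Srprb, its membrane partner, had a log2 difference of 0.21 (limma with Benjamini-Hochberg adjusted p = 0.705), which was -0.065 when libraries were rescaled to the same total.

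RNA polymerase III, which transcribes all of these RNAs, had 13 genes tested and 0 called, with a median of -0.03. Polr1d had the highest mean, at 708 ± 125 normalized counts in WT against 720 ± 127 in Dock3 KO (SD, n = 3 each). Polr3g, a paralog of the subunit Polr3gl, was at 140, 96.6 and 41.4 in the WT samples, against 40.5, 28.4 and 17.2 in the Dock3 KO samples. The Dock3 KO values were all lower, the log2 difference was -1.57 (standard error 0.47), and the adjusted p was 0.232 (limma, Benjamini-Hochberg). Of the transcription factors of RNA polymerase III, 20 were tested and 0 called, with a median of -0.05. Maf1, which represses the polymerase, had the highest mean, at 1335 ± 87.8 in WT against 1384 ± 286 in Dock3 KO (SD, n = 3 each). Snapc2, a subunit of the complex that binds the promoters of small nuclear RNA genes, was at 77.2, 98.0 and 119 in the WT samples, against 149, 157 and 168 in the Dock3 KO samples, with a log2 difference of 0.70 (limma with Benjamini-Hochberg adjusted p = 0.254). Snapc3, of the same complex, had a log2 difference of -0.51 (limma with Benjamini-Hochberg adjusted p = 0.442).

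**Figure D4:**
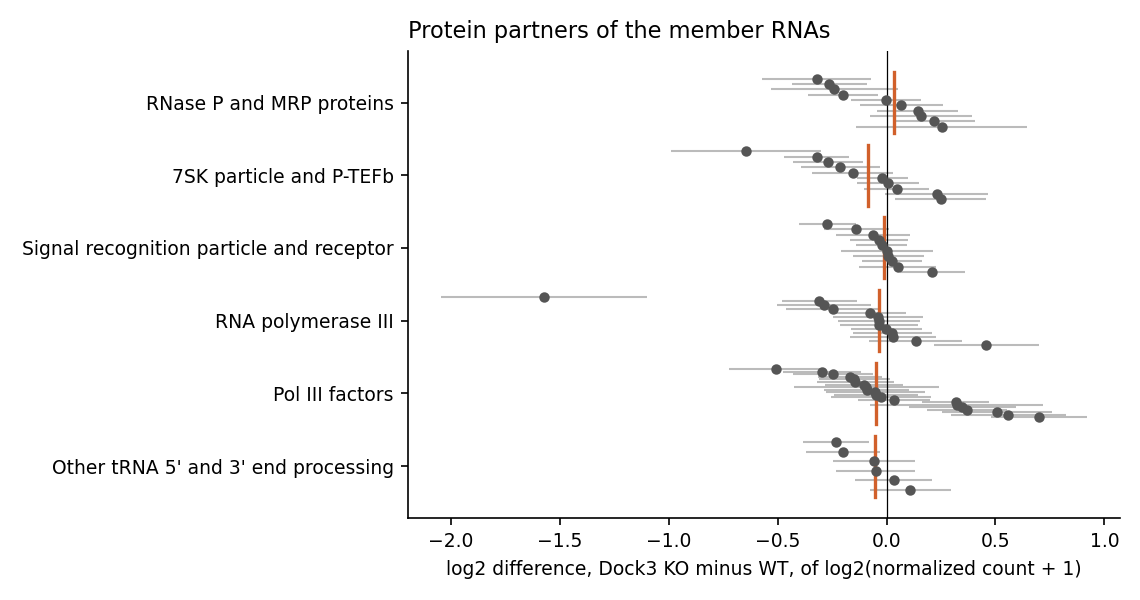
Log2 difference (horizontal axis, Dock3 KO minus WT of log2(normalized count + 1)) of each tested gene in the 6 protein lists, with its standard error as a grey line and the list median as an orange line. The medians lie between -0.09 and 0.03, Polr3g at -1.57 is the lowest point, and none passed the adjusted threshold.

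Other small structured RNAs were compared as a background for the set. In the 7 GENCODE types snRNA, snoRNA, scaRNA, misc_RNA, rRNA, ribozyme and Mt_rRNA, 178 genes outside the set were tested, of which 1 rose and 2 fell (limma, Benjamini-Hochberg; 1.03% of all genes tested were called), and 130 had a log2 difference above 0. Their median log2 difference was 0.21, beside -0.01 over all genes, but it was -0.06 when libraries were rescaled to the same total and -0.14 without WT replicate 1, so its sign depended on the scaling and on 1 library. Rescaling to the same total moved the median of all genes to -0.28. Scarna6, a guide RNA for modification of spliceosomal RNAs (chr1:87784556-87784820, within Atg16l1 on the same strand), rose from 459, 495 and 506 normalized counts in WT to 897, 927 and 916 in Dock3 KO. The log2 difference was 0.91 (standard error 0.13; limma with Benjamini-Hochberg adjusted p = 0.00659), and 5 of 19 alternatives ended this call, with adjusted p over the alternatives from 0.00394 to 0.190.

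The 2 that fell, Gm25360 and Gm25813, were named after their values were seen. They are annotated as snRNA genes, at chr1:72226240-72226430 and chr8:52336915-52337105, and match each other at 97.91% of positions. Each has closer copies. Gm25813 matches the far more abundant Gm23849 at 98.95% of positions, and Gm25360 matches Gm23472 and Gm25939 at 98.43%. The values of Gm25360 and Gm25813 are therefore uncertain where reads fit several copies. Gm25360 was at 10161 ± 2291 in WT against 1601 ± 297 in Dock3 KO, and Gm25813 at 458 ± 155 and 70.1 ± 11.2 (SD, n = 3 each). The log2 differences were -2.66 and -2.65 (limma with Benjamini-Hochberg adjusted p = 8.07e-05 and 0.000654). Gm25813 missed the threshold, with an adjusted p of 0.0513, when Dock3 KO replicates 1 and 2 were left out; over its 19 alternatives the adjusted p ran from 1.28e-05 to 0.0513 (limma, Benjamini-Hochberg). Of the listed abundant RNAs outside the set, 21 were tested and only Scarna6 passed. The U1 RNA gene Rnu1a1 was at 206955 ± 71360 in WT against 236028 ± 67680 in Dock3 KO, the vault RNA gene Vaultrc5 at 16993 ± 7271 and 10923 ± 3504, the Y RNA gene Rny1 at 7058 ± 4741 and 4361 ± 1107, and the telomerase RNA gene Terc at 11.0 ± 2.71 and 14.5 ± 5.97 (SD, n = 3 each).

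**Figure D5:**
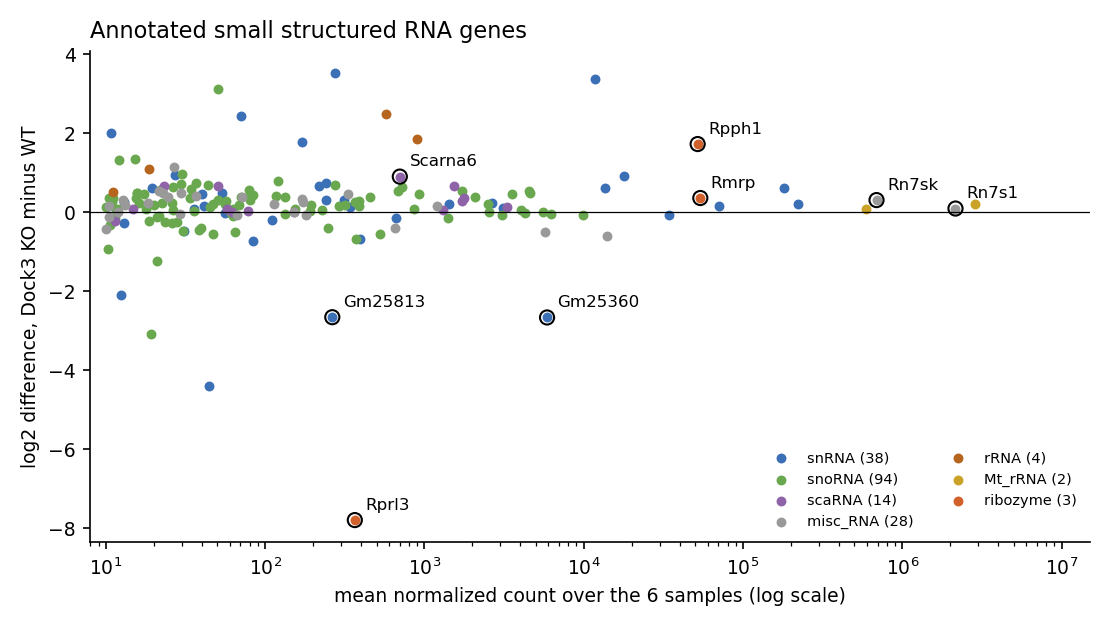
Log2 difference (vertical axis, Dock3 KO minus WT) against mean normalized count over the 6 samples (horizontal axis, log scale) for 183 genes of the 7 small RNA types, coloured by type. Rprl3 at -7.79 is the lowest point, Rpph1 lies at 1.73, Rn7sk and Rn7s1 lie at the right, and Scarna6, Gm25360 and Gm25813 are the genes outside the set past the adjusted threshold; the values of the set are descriptions, without a test.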

How the data were processed

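RNA-seq of 6 adult mouse tibialis anterior samples (3 WT, 3 Dock3 KO) was analysed. The authors deposited 1 table of normalized counts, a signal per Ensembl gene that is neither whole nor of fixed sum. Salmon 0.12.0, DESeq2 1.22.1, Trim Galore 0.4.5, FastQC, R 3.5.3 and the builds mm10 and GRCm38 are named per the submitters' processing notes, without their roles. Symbols, positions and transcripts are from GENCODE M21, and RefSeq gave types and lengths.

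Values were fitted as log2(value + 1) with limma 3.58.1 in R 4.3.3 (trended prior, no covariates), over the 16031 genes with a mean of at least 10, with Benjamini-Hochberg adjustment and a threshold of 0.05. The script was tested on simulated data. Each sample's commonest low value served as the worth of 1 read; whole reads could not be recovered, so count tests were left out. Alignments used Biopython 1.88. Alternatives covered pseudocount, filter, scaling, prior variance, covariates and left-out samples. The members and gene lists were chosen with earlier results of these data known. Named genes are the members, the genes most correlated with each, and in each protein list the 2 with the smallest p and the 1 with the highest mean. Listed structured RNAs that passed the filter could also be named; neighbours and overlapping genes of the members were added after their values were seen. One of these genes and one sequence are not reported here. Marker lists were for fibres, erythrocytes, adipocytes, macrophages, endothelium, fibroblasts and nerve sheath; 2 of the 4 fibroblast genes rose and no other marker was called (limma).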

Additional observations from a re-analysis of the deposited data

How the results depend on the processing

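The count of 165 changed genes was 104 with a prior variance without trend, 57 with Gm42418 as a covariate and 56 with Dock3 KO replicates 1 and 2 left out, an alternative chosen after seeing the data. It ran from 100 (without WT replicate 4) to 159 when 1 sample was left out, with 102 without Dock3 KO replicate 2. The share of higher calls was 43.0%, 23.2% with libraries rescaled to the same total, 31.9% without Gm42418 and Lars2 in that total, 32.7% without trend, 29.8% with the covariate and 16.1% with both samples left out. Over 19 alternatives, 0 protein partner genes were called (limma). The log2 difference of Rprl3 was -8.28 with a pseudocount of 0.1 and -5.88 with 10, and -8.00 to -7.57 with 1 sample left out. That of Rpph1 was 2.07 with the covariate, 1.46 with the same total, and 1.58 to 1.89 with 1 sample left out. Srprb was at -0.065 with the same total. Scarna6 missed the threshold with the same total, without trend, with the covariate, with the block and with both samples left out. The count tests of edgeR and DESeq2 need whole reads and were not run. Lone samples were assumed to vary like the others.

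Same-numbered samples share a number, and the labels do not say whether they were paired. The correlations between their deviations were 0.065 for replicate 1 and 0.0066 for replicate 3, too few pairs to decide this. With the replicate block, which leaves 1 residual degree of freedom, 127 genes and 0 partner genes were called, Rprl3 was at -7.96 and Rpph1 at 1.92.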

Other observations

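The snRNA gene Gm25360 has close copies in the annotation. Gm25360 and Gm25939 match at 188 of 191 positions (98.43%). Gm25939 gave 579, 1030 and 10521 normalized counts in the WT samples, against 21730, 15504 and 21465 in the Dock3 KO samples, so every Dock3 KO value was higher, although 1 WT sample stood far above the other WT values (log2 difference 3.39, limma with Benjamini-Hochberg adjusted p = 0.126). Gm24497 was at 14336 ± 9695 in WT against 21592 ± 3268 in Dock3 KO, and Gm23472 at 34413 ± 5740 and 34614 ± 13644 (SD, n = 3 each). Gm23849, the most abundant of these copies, matches Gm25360 at 187 of 191 positions and gave 100414, 166154 and 161431 in the WT samples, against 234571, 175410 and 243403 in the Dock3 KO samples. Every Dock3 KO value was higher, with a log2 difference of 0.63 (limma with Benjamini-Hochberg adjusted p = 0.409). How reads were divided among these copies is not given in the sources used here. These genes were chosen after their values were seen.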
